A study of Capra hircus with 9 samples.

Results

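The nuclear genes of the respiratory chain and of ATP synthase were followed through the rumen epithelium of goats on 3 diets. The members were all genes whose listed symbol began with NDUFA, NDUFB, NDUFC, NDUFS or NDUFV and a digit, or with ATP5 and a letter, which gave 54 of the 18383 genes named in the files. Of these, 35 encode subunits of complex I and 15 encode subunits of ATP synthase (complex V). The other 4 are NDUFA4, its paralog NDUFA4L2, ATP5S and ATP5SL, which are not counted as subunits of either complex. All 54 were listed in every library and all 54 were among the 11668 genes tested. The nuclear subunit genes of complexes III and IV are not analysed here, so the complexes compared are I and V.

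RNA sequencing measured the epithelium lining the rumen, the largest forestomach, in 9 libraries from Capra hircus aged 4 months. The groups were HC, MC and LC, each with 3 libraries, named HC1 to HC3, MC1 to MC3 and LC1 to LC3. The series states only that 3 types of concentrate diet were fed, with no genotype, strain or drug treatment named, and no group is described as unfed or as a standard diet. Whether each library stands for an animal of its own is not stated, and p-values measure the spread between these samples only.

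The respiratory chain passes electrons from NADH and succinate to oxygen and pumps protons across the inner mitochondrial membrane, and ATP synthase uses the returning protons to make ATP. Complex I takes the electrons of NADH through its N module, hands them to ubiquinone in its Q module and pumps protons with its membrane arm. ATP synthase consists of a catalytic F1 head, a rotating ring of subunit c in the membrane, a peripheral stalk that holds the head still, and small membrane subunits that shape the dimer. In the rumen epithelium these machines are fed largely by butyrate and other short-chain fatty acids taken up from the lumen. Most subunits are encoded in the nucleus and a few in the mitochondrial genome, which is not among the members.

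Values are FPKM, fragment numbers corrected for transcript length and library size, so that levels of different genes can be set side by side. No read counts were given and the depth of the libraries is unknown. Group values are means ± SD (n = 3), and changes are differences of mean log2(FPKM + 1) ± SE from limma, which understate the change of low genes. A gene passed the test at a Benjamini-Hochberg adjusted p under 0.05 over the 11668 genes.

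The libraries listed 15123 to 16696 genes, of which 10880 to 12009 reached 1 FPKM. KRT5, a keratin of the basal layer, lay at 2696 to 4803 FPKM in all 9 libraries, and 9 to 10 of 11 epithelium markers reached 1 FPKM in each. Other epithelium markers differed by diet, such as KRT4, at means of 21.1 FPKM in HC, 2.03 in MC and 53.8 in LC. Of 10 tested with limma, 3 were lower (30%, against 17.4% of all genes) and 0 higher in HC against LC. In MC against LC 1 was lower (10%, against 17.1%) and 0 higher. In HC against MC 2 were higher (20%, against 8.0%) and 2 lower (20%, against 17.0%). The summed FPKM was 962868 to 1051183 in HC, 903006 to 910750 in MC, 1024096 and 1030724 in LC2 and LC3, and 755624 in LC1. The 10 smooth muscle markers summed to 115 to 150 FPKM in HC, 1185 to 3666 FPKM in MC and 60.4 to 2423 FPKM in LC, where LC3 was lowest and LC1 highest. Among the LC libraries, LC1 also had the highest sums of 8 fibroblast markers (560 FPKM) and 7 endothelium markers (103 FPKM), above the 133 to 340 FPKM and 17.8 to 81.3 FPKM of the other 8 libraries. The 15 immune cell markers summed to 39.7 to 53.6 FPKM in HC, 23.1 to 33.0 FPKM in MC and 53.4 to 66.3 FPKM in LC. LC thus lay above MC and overlapped HC in 1 library each. Of the 15, 11 were tested with limma. Of these 11, 6 were lower (54.5%, against 17.4% of all genes) and 1 higher (9.09%, against 7.79%) in HC against LC. In MC against LC 8 were lower (72.7%, against 17.1%) and 1 higher (9.09%, against 16.2%). The counts were the same without LC1. The part of these markers in the comparisons with LC was not tested. The muscle genes DES and MYH11 were listed in every library, at 1.28 to 1233 FPKM and 2.41 to 293 FPKM. Not all muscle genes were low in HC. ACTA2 had 25.1 to 32.4 FPKM in HC, 14.8 to 31.0 FPKM in MC and 9.19 to 23.0 FPKM in LC, and passed the test in no contrast. In such bulk tissue, fewer cells of a type and less RNA per cell cannot be told apart.

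ATP synthase genes were the more abundant. Their means over the 9 libraries ran from 345 FPKM for ATP5L, subunit g, to 1907 FPKM for ATP5E, the epsilon subunit of the central stalk. Complex I genes ran from 24.3 FPKM for NDUFS6, a zinc-binding accessory subunit, to 478 FPKM for NDUFB7, an accessory subunit of the membrane arm. NDUFA4L2 was the least abundant member, with a mean of 1.49 FPKM. The highest library exceeded the lowest by 1.23-fold for NDUFS3, a core subunit of the Q module, and by 2.74-fold for NDUFA6, with NDUFA4L2 outside that range at 4.43-fold. Of the 54 members, 33 had their highest mean in HC, 12 in LC and 9 in MC. The lowest library was LC1 for 39 of the 54 members, and for 2588 of the 11668 genes tested.

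Of the members, 53 lay on 23 chromosomes, with 7 on chromosome 7, and NDUFS6 lay on a sequence not placed on a chromosome. The closest pair was NDUFV1 (chromosome 29, 43282808 to 43286968) and NDUFS8 (chromosome 29, 43376374 to 43399319), 89.4 kb apart. NDUFS7 and ATP5D stood 123 kb apart on chromosome 7. Positions are those of the files, whose genome build is not given in the sources used here. For 8 members the listed locus is shared with another gene, which leaves their values uncertain. They are ATP5G2, ATP5I, ATP5J, ATP5S, NDUFA2, NDUFA4L2, NDUFS4 and NDUFS8.

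Complex I genes summed to 7228, 8166 and 8234 FPKM in HC1, HC2 and HC3. They summed to 6670, 7003 and 6882 FPKM in MC1, MC2 and MC3, and to 5008, 8280 and 8193 FPKM in LC1, LC2 and LC3. The HC sums lay above all MC sums, and the LC libraries held both the lowest and the highest sum. As a share of the library's summed FPKM, complex I took 0.751%, 0.777% and 0.785% in HC, 0.735%, 0.776% and 0.756% in MC, and 0.663%, 0.809% and 0.795% in LC. On that scale HC and MC overlapped, and LC1 was still the lowest library.

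Complex V showed a like pattern. Its genes summed to 12400, 13955 and 14069 FPKM in HC1, HC2 and HC3, to 11300 (1.25% of the library), 12019 and 11640 FPKM in MC1, MC2 and MC3, and to 8060, 13564 and 13421 FPKM in LC1, LC2 and LC3. Again HC stood above MC in FPKM, and the shares of the library overlapped (1.29% to 1.34% in HC, 1.25% to 1.33% in MC). The complex V sum was 1.71 to 1.72 times the complex I sum in HC, 1.69 to 1.72 times in MC and 1.61 to 1.64 times in LC, with the lowest ratio in LC1. No test was run on the sums or their ratio. In both complexes LC1 had the lowest sum, the 3 MC libraries came next, and HC1 followed.

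Taken gene by gene, the median deviation of complex I genes from their own mean over the 9 libraries was -0.02, 0.12 and 0.15 log2 in HC, -0.07, -0.02 and -0.05 log2 in MC, and -0.52, 0.17 and 0.17 log2 in LC1, LC2 and LC3. For complex V the medians were 0.07, 0.23 and 0.21 log2 in HC, -0.07, -0.04 and -0.07 log2 in MC, and -0.57, 0.17 and 0.22 log2 in LC. Over all genes tested they ran from -0.09 to 0.06 log2. In LC1, 34 of 35 complex I genes and 15 of 15 complex V genes lay below their own mean, against 5776 of the 11668 genes tested.

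**Figure D1:**
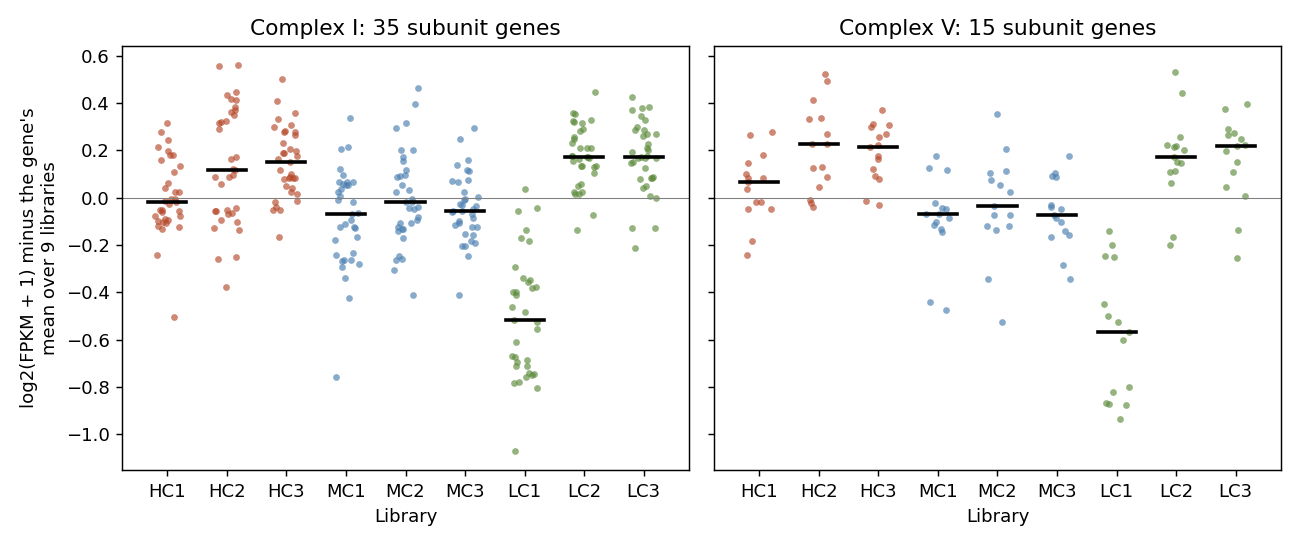
Each point is a gene's log2(FPKM + 1) in a library minus its mean over the 9 libraries (y axis, log2 units), for 35 complex I genes and 15 complex V genes, with libraries on the x axis and bars at the median. LC1 stands below the other 8 libraries, with medians of -0.52 and -0.57 log2.

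LC1 was set against the mean of LC2 and LC3, its companions on the same diet. The median of the 54 members was -0.65 log2, a level of 63.8%, against -0.07 log2 over all genes tested. In LC1, 53 of 54 members were lower, against 56.6% of all genes. NDUFS3 was the exception, at 49.0 FPKM in LC1 against 53.9 and 43.7 FPKM in LC2 and LC3. The median was -0.64 log2 for complex I and -0.78 log2 for complex V. For 8 members (14.8%) the difference was -1 log2 or lower, which held for 1.09% of all genes. They were the complex I accessory genes NDUFA2, NDUFA6, NDUFB9 and NDUFS5, the peripheral stalk genes ATP5H and ATP5J, and the genes of subunits e and f, ATP5I and ATP5J2. NDUFA6, an LYR-motif protein at the Q module, had 93.2 FPKM in LC1 against 216 and 230.5 FPKM in LC2 and LC3. ATP5H, subunit d of the stalk, had 424 FPKM in LC1 against 906 and 921 FPKM.

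The F1 genes differed among themselves in LC1. ATP5B, the catalytic beta subunit, was at 83.4% of the mean of LC2 and LC3, and ATP5A1, the alpha subunit, at 80.0%. The central stalk genes were lower, with ATP5D at 63.3%, ATP5C1, the gamma subunit, at 58.8% and ATP5E at 53.3%. In complex I, NDUFS1, the largest core subunit, was at 83.3%. Across the 54 members, the difference between LC1 and its companions had a Spearman rho of -0.38 with the mean log2 level, so the more abundant members tended to be lower in LC1. That relation is across genes that share their libraries, and is a description. The median deviation in LC1 from the 9-library mean was -0.58 log2 for 76 cytosolic ribosomal protein genes and -0.50 log2 for 73 mitochondrial ribosomal protein genes. It was -0.25 log2 for 8 genes of complex II. With every library scaled to the same summed FPKM (equal library sums), the member median in LC1 was -0.21 log2, with 39 of 54 lower, and that of all genes 0.32 log2. After median-of-ratios scaling these medians were -0.59 and -0.01 log2. The part of the muscle, fibroblast and endothelium markers in these values was not tested. Set against the other libraries of their diet, the remaining 8 libraries had member medians of -0.12 to 0.06 log2 in HC and -0.06 to 0.05 log2 in MC, and 0.35 and 0.33 log2 in LC2 and LC3, whose companions include LC1.

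Because LC1 enters every LC mean, the comparisons with LC are given with and without it. LC1 also widened the spread of the members, whose median SE was 0.20 log2 with all libraries and 0.12 log2 without LC1 for contrasts with LC, against 0.15 log2 for all genes in both fits.

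In HC against LC, few members moved. NDUFA11, ATP5G2 and ATP5G3 rose and NDUFA4L2 fell, so that 4 of 54 members (7.41%) passed the test, against 25.2% of all genes (7.79% higher and 17.4% lower). The members' median was 0.16 log2, with 40 above 0, against -0.10 log2 over all genes. With equal library sums it was 0.02 log2 (30 above 0), against -0.22 log2 over all genes. After median-of-ratios scaling it was 0.29 log2 (49 above 0), against 0.005 log2. Without LC1 the members' median was -0.07 log2, with 16 above 0. It was then -0.06 log2 (17 above 0) with equal library sums and 0.08 log2 (35 above 0) after median-of-ratios scaling. On the deposited scale 7 of 54 members then passed (23.9% of all genes). They were the same 3 rises and 4 falls, against 6.74% and 17.2% of all genes. The added falls were NDUFA7, NDUFB2 and NDUFB3 of complex I. The summed level of complex I in HC exceeded that in LC by 0.17 log2 and that of complex V by 0.24 log2, and without LC1 the differences were -0.07 and -0.004 log2. On the deposited scale the direction of the complex I sum against LC thus rested on LC1, and without LC1 the complex V sums were nearly equal. As a mean share of the library, complex V took 1.319% in HC and 1.313% in LC2 and LC3. After median-of-ratios scaling without LC1, the median over genes was 0.08 log2 for complex I and 0.07 log2 for complex V. The libraries of HC and LC did not overlap for 6 members, against 40.6% of all genes.

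The rises in HC included genes of the rotor ring. Subunit c, which carries the protons, is made from ATP5G1, ATP5G2 and ATP5G3, whose mature protein is the same and whose reads may be hard to divide among them. ATP5G2 (chromosome 5, 25623207 to 25648159) had 1627, 1947 and 1677 FPKM in HC, 1479, 1247 and 1229 FPKM in MC, and 959, 1181 and 1135 FPKM in LC. On the deposited scale all HC libraries lay above all MC libraries, and all MC libraries above all LC libraries. As a share of the library's summed FPKM, HC3 lay below MC1. It rose by 0.68 ± 0.17 log2 in HC against LC (limma adjusted p = 0.0120), and by 0.59 ± 0.12 log2 without LC1 (adjusted p = 0.00641). Without HC2 its adjusted p was 0.0535. In HC against MC it passed without LC1 and not with all libraries, and in MC against LC it passed in neither fit.

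ATP5G3 (chromosome 2, 21022071 to 21025206) had 847, 881 and 836 FPKM in HC, 789, 757 and 742 FPKM in MC, and 365, 622 and 636 FPKM in LC. On the deposited scale the diets again did not overlap and stood in the same order. As a share of the library's summed FPKM, HC and MC overlapped. The change in HC against LC was 0.70 ± 0.21 log2 (limma adjusted p = 0.0277), and 0.44 ± 0.09 log2 without LC1 (adjusted p = 0.00773). The call was lost when any 1 of the HC libraries was left out, with an adjusted p of up to 0.0767. In MC against LC the change was 0.54 ± 0.20 log2 (adjusted p = 0.0632), and 0.28 ± 0.09 log2 without LC1 (adjusted p = 0.0432).

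ATP5G1 had 362, 579 and 510 FPKM in HC, 372, 401 and 439 FPKM in MC, and 236, 479 and 425 FPKM in LC, with overlapping diets. Its change in HC against LC was 0.38 ± 0.26 log2 (limma adjusted p = 0.295), and 0.07 log2 without LC1 (adjusted p = 0.802). ATP5G2 supplied most of the c transcripts, 55.5% to 57.4% in HC, 51.0% to 56.0% in MC and 51.7% to 61.5% in LC. The 3 genes together summed to 2836, 3407 and 3023 FPKM in HC, 2640, 2405 and 2410 FPKM in MC, and 1560, 2282 and 2197 FPKM in LC. As a share of the library they took 0.288% to 0.324% in HC, 0.265% to 0.291% in MC and 0.206% to 0.223% in LC. On that scale HC and MC overlapped. Relative to ATP5B, the sum was 3.68 to 3.70 in HC, 3.56 to 4.198 in MC and 2.47 to 3.00 in LC. The ratio, which does not depend on the scaling of a library, was lowest in LC1, and LC2 and LC3 also lay below every HC and MC library. It was chosen after the values were seen and was not tested.

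**Figure D2:**
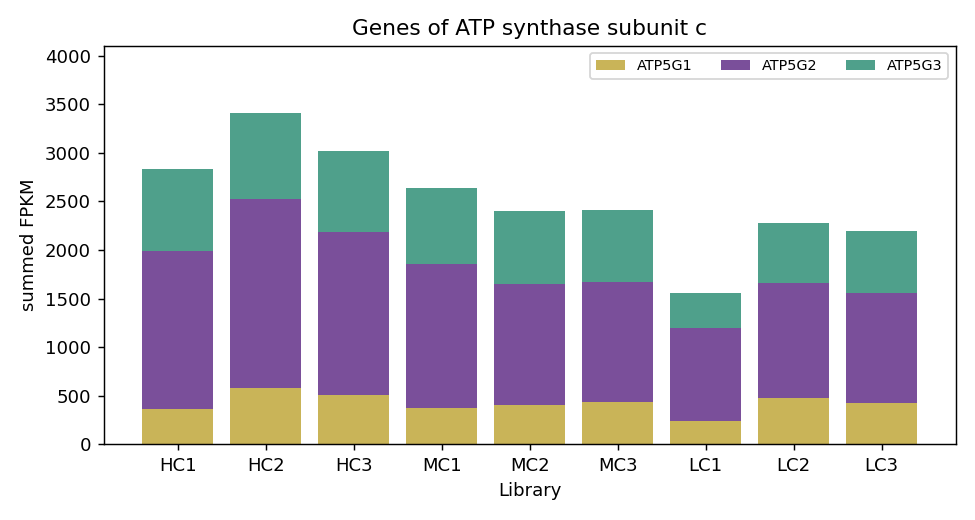
Summed FPKM (y axis) of the 3 genes of ATP synthase subunit c in each library (x axis), stacked as ATP5G1, ATP5G2 and ATP5G3. On the deposited scale every HC library, at 2836 to 3407 FPKM, stands above every MC library and every LC library. As shares of the library, HC and MC overlap.

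NDUFA11 (chromosome 7, 14917887 to 14922964) encodes an accessory subunit of the membrane arm of complex I. It had 353, 466 and 449 FPKM in HC, 293, 306 and 304 FPKM in MC, and 193, 301 and 273 FPKM in LC. The HC libraries lay above the rest, while MC and LC overlapped. The rise in HC against LC was 0.74 ± 0.19 log2 (limma adjusted p = 0.0140), and 0.55 ± 0.13 log2 without LC1 (adjusted p = 0.0125). It missed the threshold without HC2 or without HC3, with an adjusted p of up to 0.0598. Against MC the change was 0.48 ± 0.19 log2 (adjusted p = 0.0800).

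**Figure D3:**
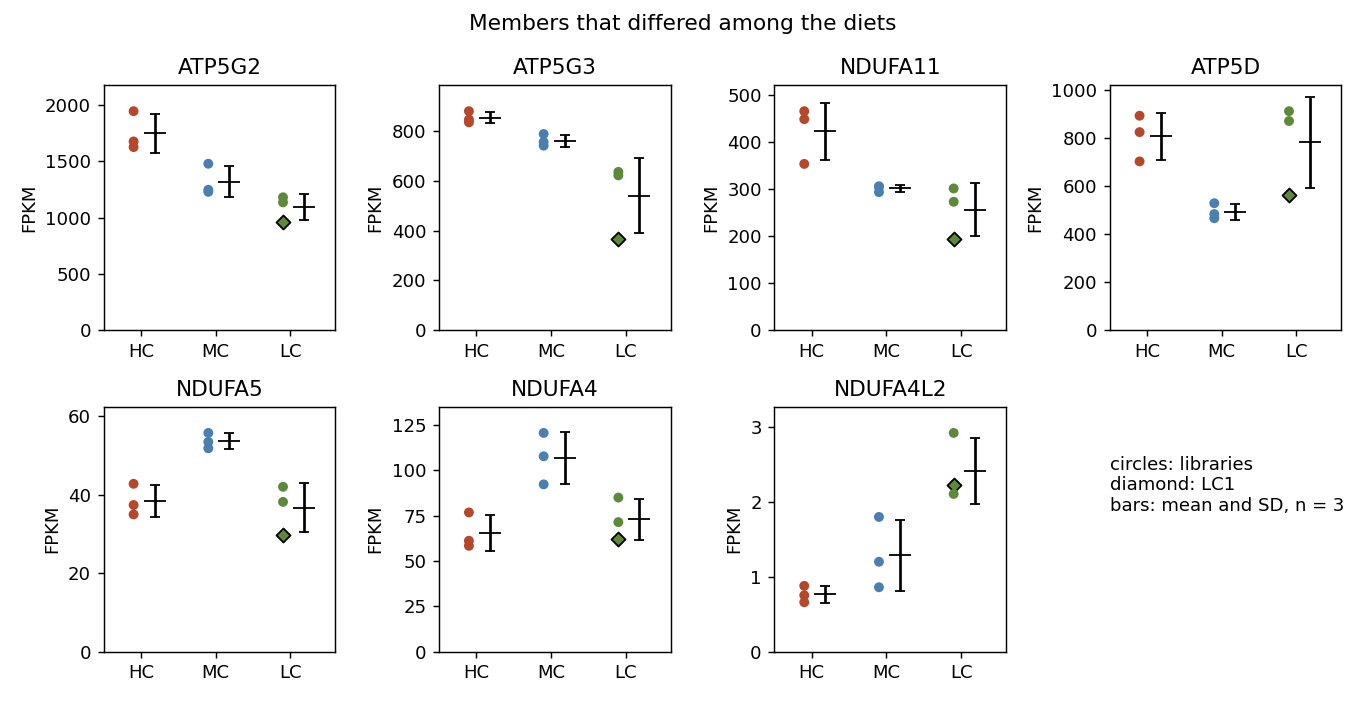
FPKM (y axis) of the 7 members that passed the F test among the 3 diets (x axis), with a point per library, a diamond for LC1, and bars for the mean and SD of 3 libraries. ATP5G2, ATP5G3 and NDUFA11 are highest in HC, NDUFA5 and NDUFA4 in MC and NDUFA4L2 in LC, while ATP5D is low in MC.

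In MC against LC, NDUFA5 and NDUFA4 rose and ATP5D and NDUFA4L2 fell, 4 of 54 members (7.41%) against 33.4% of all genes (16.2% higher and 17.1% lower). The members' median was -0.03 log2 and that of all genes -0.01 log2. Without LC1 the members' median was -0.23 log2, and 46 of 54 lay below 0. It was then -0.05 log2 (34 below 0) with equal library sums and -0.20 log2 (44 below 0) after median-of-ratios scaling. On the deposited scale 20 members then passed the test (34.7% of all genes), of which 3 were higher and 17 lower. Higher calls made up 5.56% of members in that fit and 15.9% of all genes, and lower calls 31.5% of members and 18.8% of all genes. The 17 lower members held 11 genes of complex I, 5 of complex V and NDUFA4L2. The count of lower members was 15 without LC1 after median-of-ratios scaling (17.8% of all genes), and 3 without LC1 with equal library sums (12.4% of all genes), a scaling that lowers LC2 and LC3 relative to MC. With all libraries, those of MC and LC did not overlap for 10 members, against 47.1% of all genes.

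ATP5D (chromosome 7, 39870404 to 39872596) encodes the delta subunit of the central stalk, which joins the c ring to the head. It had 702, 893 and 824 FPKM in HC, 483, 465 and 528 FPKM in MC, and 564, 912 and 871 FPKM in LC. MC lay below every other library, and HC and LC overlapped. The fall in MC against LC was -0.64 ± 0.20 log2 (limma adjusted p = 0.0279), and -0.86 ± 0.12 log2 without LC1 (adjusted p = 5.63e-04). Between HC and MC it was higher in HC by 0.71 ± 0.20 log2 (adjusted p = 0.0240). Leaving out MC1 or MC2 ended both calls, as did LC2, LC3 or MC3 for the first and HC2 or HC3 for the other.

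NDUFA5 (chromosome 4, 85340633 to 85354629), an accessory subunit of the Q module, had 42.7, 35.0 and 37.3 FPKM in HC, 53.4, 55.7 and 51.8 FPKM in MC, and 29.8, 38.1 and 42.0 FPKM in LC. The MC libraries lay above the rest. The rise in MC against LC was 0.55 ± 0.14 log2 (limma adjusted p = 0.0122), it held in all 21 alternatives, and it was 0.41 ± 0.12 log2 without LC1 (adjusted p = 0.0204). It fell in HC against MC by 0.48 ± 0.14 log2 (adjusted p = 0.0322). That call was lost after median-of-ratios scaling and without HC2, HC3 or any 1 of the MC libraries, with an adjusted p of up to 0.111.

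NDUFA4 and NDUFA4L2 are paralogs. NDUFA4 was first described with complex I and is now placed with complex IV, and NDUFA4L2 is known in human and mouse cells as a gene induced by low oxygen through HIF1A that lowers complex I activity. NDUFA4 (chromosome 4, 16892322 to 16899464) had 76.8, 58.4 and 61.2 FPKM in HC, 121, 108 and 92.3 FPKM in MC, and 62.3, 85.0 and 71.4 FPKM in LC. MC lay above both other diets, which overlapped. It rose by 0.55 ± 0.17 log2 in MC against LC (limma adjusted p = 0.0243), and by 0.44 ± 0.16 log2 without LC1 (adjusted p = 0.0487). It fell in HC against MC by 0.70 ± 0.17 log2 (adjusted p = 0.0108), a call lost without MC1 at an adjusted p of 0.0532. The rise against LC was lost without MC1, MC2 or LC3.

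NDUFA4L2 (chromosome 5, 54645138 to 54652802) had 0.880, 0.660 and 0.754 FPKM in HC, 0.861, 1.801 and 1.202 FPKM in MC, and 2.22, 2.92 and 2.11 FPKM in LC. LC lay above every other library, and LC1 did not stand apart. All HC libraries and MC1 lay under the minimum of 1 FPKM. The gene was thus tested only through its higher values in LC, MC2 and MC3, and the filter of 5 FPKM left it out. The fall in HC against LC was -0.95 ± 0.17 log2 (limma adjusted p = 0.00227), and it held in all 20 alternatives in which the gene was tested, with -0.99 log2 without LC1 (adjusted p = 0.00457). In MC against LC the change was -0.59 ± 0.17 log2 (adjusted p = 0.0198), which missed the threshold without MC1, MC3 or LC2, and without LC1 once library sums were made equal. Without LC1 alone it was -0.63 log2 (adjusted p = 0.0260). Its locus is shared with SHMT2, a gene of mitochondrial serine metabolism, which had 12.9 to 13.3 FPKM in HC, 19.1 to 20.0005 FPKM in MC and 12.6 to 17.2 FPKM in LC, so its order of diets was another. HIF1A itself averaged 18.3 ± 1.94 FPKM in HC, 23.8 ± 2.77 FPKM in MC and 25.3 ± 3.65 FPKM in LC. It fell by 0.44 ± 0.14 log2 in HC against LC (adjusted p = 0.0360, and 0.0295 without LC1) and did not pass in MC against LC (adjusted p = 0.682, and 0.466 without LC1).

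**Figure D4:**
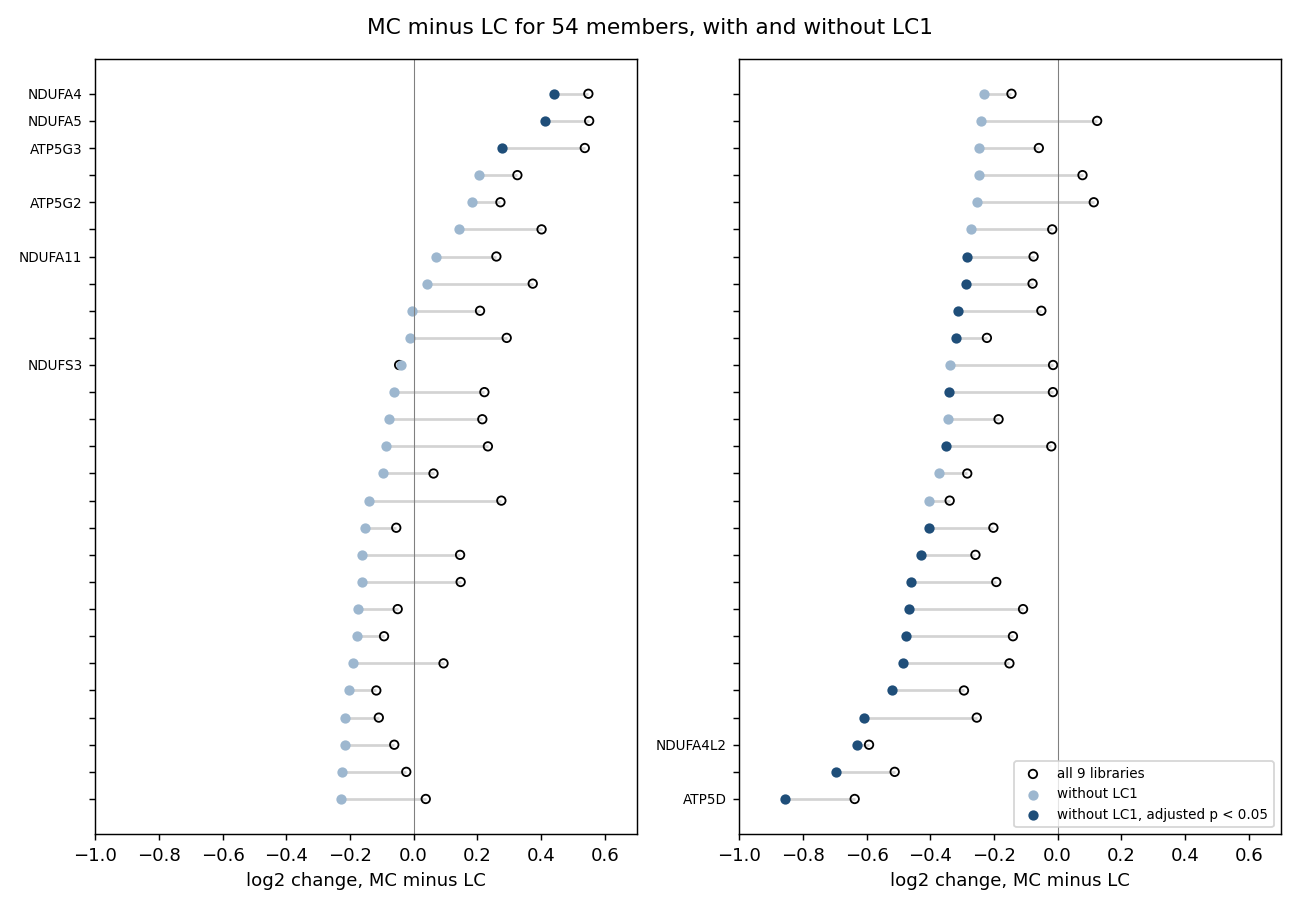
Log2 change in MC against LC (x axis) of each of the 54 members, with all 9 libraries (open circles) and without LC1 (filled, dark where the adjusted p is under 0.05), sorted by the value without LC1, with names for NDUFS3 and the 7 members past the F test. All points but that of NDUFS3 move left without LC1, and the median is -0.23 log2 without it and -0.03 log2 with all libraries.

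In HC against MC, ATP5D rose and NDUFA5 and NDUFA4 fell, 3 of 54 members (5.56%) against 25.0% of all genes (8.0% higher and 17.0% lower). The members' median was 0.17 log2, with 42 above 0, against -0.10 log2 over all genes. It was -0.0004 log2 (27 above 0) with equal library sums and 0.29 log2 after median-of-ratios scaling. LC1 belongs to neither diet, so leaving it out changed no value here and only the spread that the fit shares among libraries. With that smaller spread 13 members passed (34.8% of all genes), 11 higher and 2 lower, against 11.3% and 23.5% of all genes. Those higher included NDUFV1, NDUFS7, NDUFA10, NDUFA11, NDUFB6, NDUFB10, ATP5B, ATP5D, ATP5G2 and ATP5F1. Libraries of HC and MC did not overlap for 20 members, 16 higher and 4 lower, against 46.4% of all genes (14.7% higher and 31.6% lower). The higher count depended on the scaling too, with 24 higher (44.4% of members, 17.7% of all genes) without LC1 after median-of-ratios scaling and 4 (7.41% of members, 7.02% of all genes) with equal library sums. The sums of both complexes in HC exceeded those in MC by 0.20 and 0.21 log2, and as shares of the library by 0.03 and 0.04 log2. HC and MC also differed in the smooth muscle marker sums given above, and the part of this in the difference was not tested.

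Among the core genes of complex I in this comparison, NDUFV1, which takes the electrons from NADH, had 297, 420 and 378 FPKM in HC, 232, 230 and 283 FPKM in MC, and 198, 295 and 292 FPKM in LC. On the deposited scale all HC libraries lay above all others. As a share of the library's summed FPKM, HC1 lay below MC3. The change in HC against MC was 0.55 ± 0.20 log2 (limma adjusted p = 0.0618), and 0.55 ± 0.14 log2 without LC1 (adjusted p = 0.0126). NDUFV2 and NDUFS1, the other core genes of the N module, passed in no contrast with or without LC1.

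NDUFB7 and NDUFA13 were the most abundant complex I genes. NDUFB7 had 444, 507 and 541 FPKM in HC, 498, 431 and 501 FPKM in MC, and 365, 511 and 506 FPKM in LC. Its diets overlapped, and its change in HC against LC was 0.12 ± 0.17 log2 (limma adjusted p = 0.634), and -0.03 log2 without LC1 (adjusted p = 0.862). NDUFA13, also known as GRIM19, had 421, 599 and 554 FPKM in HC, 372, 415 and 423 FPKM in MC, and 259, 525 and 494 FPKM in LC. It too overlapped, with a change of 0.35 ± 0.25 log2 in HC against LC (adjusted p = 0.322) and 0.03 ± 0.15 log2 without LC1 (adjusted p = 0.910).

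NDUFB10 of the membrane arm had 327, 473 and 470 FPKM in HC, 288, 323 and 325 FPKM in MC, and 344, 527 and 486 FPKM in LC. On the deposited scale MC lay below every other library. As a share of the library's summed FPKM, HC1 lay below MC2 and MC3. Its change in MC against LC was -0.51 ± 0.20 log2 (limma adjusted p = 0.0710), and -0.70 ± 0.16 log2 without LC1 (adjusted p = 0.00735).

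In complex V the most abundant genes were ATP5E and ATP5I. ATP5E had 1920, 2040 and 2256 FPKM in HC, 1761, 2154 and 2012 FPKM in MC, and 1057, 1950 and 2016 FPKM in LC. Apart from LC1 its libraries mixed, and its change in HC against LC was 0.36 ± 0.24 log2 (limma adjusted p = 0.282) and 0.06 ± 0.12 log2 without LC1. ATP5I, subunit e of the dimer, had 1356, 1577 and 2073 FPKM in HC, 1182, 1664 and 1550 FPKM in MC, and 1056, 2319 and 2110 FPKM in LC. LC held both its lowest and its highest library. Its change in MC against LC was -0.25 ± 0.29 log2 (adjusted p = 0.535) and -0.61 ± 0.19 log2 without LC1 (adjusted p = 0.0303).

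**Figure D5:**
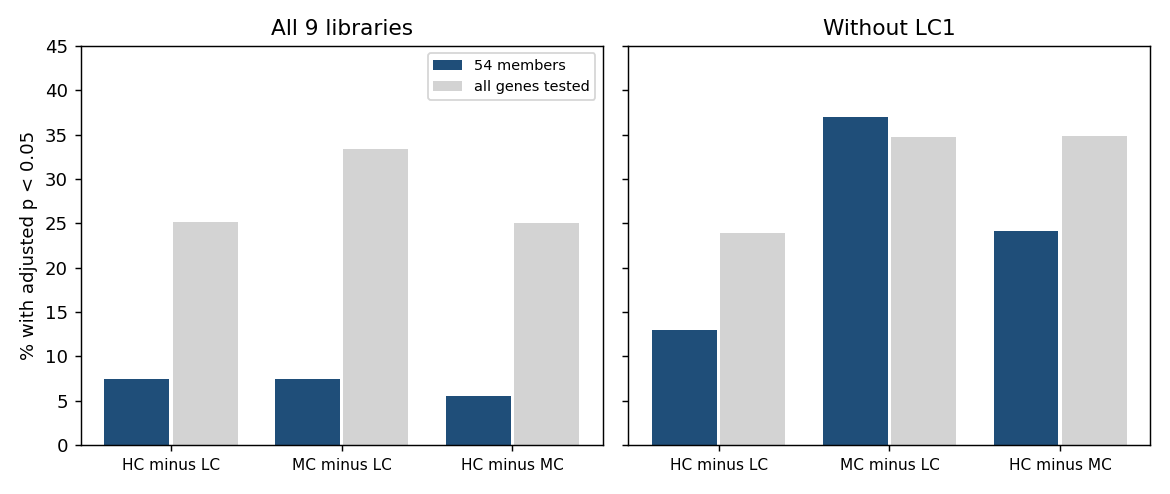
Percentage of genes with an adjusted p under 0.05 (y axis) in each comparison (x axis), for the 54 members (dark) and all 11668 genes tested (grey), with all 9 libraries and without LC1. With all libraries the members stand at 5.56% to 7.41%, below the 25.0% to 33.4% of all genes, and without LC1 at 13.0%, 37.0% and 24.1%.

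Taking the diets together, the F test of the limma fit was passed by 7 of 54 members (45.2% of all genes), and without LC1 by 25 of 54 (50.6% of all genes). The 7 were NDUFA5, NDUFA11, NDUFA4, NDUFA4L2, ATP5D, ATP5G2 and ATP5G3.

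Genes that work beside the members were taken from lists, whose counts stand against the shares of all genes given above for each comparison. Of 25 assembly factors of the respiratory chain and ATP synthase, 6 rose (24.0%, against 16.2% of all genes) in MC against LC in the limma fit and 0 fell, also at an unadjusted p under 0.05. ATPAF2, a chaperone of the ATP synthase alpha subunit, averaged 31.0 ± 1.69 FPKM in MC and 9.60 ± 1.96 FPKM in LC (1.61 ± 0.16 log2, limma adjusted p = 2.44e-05), and 12.9 ± 2.21 FPKM in HC. TTC19, an assembly factor of complex III, averaged 10.7 ± 0.47 FPKM in MC and 5.97 ± 0.82 FPKM in LC (0.75 ± 0.12 log2, adjusted p = 7.65e-04). Of the 25, 5 fell (20%, near the 17.0% of all genes) in HC against MC and 0 rose (2 at an unadjusted limma p under 0.05). In HC against LC 2 rose (8.0%, near the 7.79% of all genes) and 0 fell (2 at an unadjusted limma p under 0.05), with among the rises NDUFAF3, a complex I assembly factor (0.51 ± 0.15 log2, adjusted p = 0.0317). Without LC1, 3 rose and 2 fell in MC against LC, 1 rose and 1 fell in HC against LC, and 2 rose and 7 fell in HC against MC. The adjusted p without LC1 was 7.82e-05 for ATPAF2, 0.00197 for TTC19 and 0.0468 for NDUFAF3, whose change was then 0.35 log2.

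In complex II, which has no member by the rule, 8 genes were tested. SDHAF1, an assembly factor, averaged 12.6 ± 1.77 FPKM in HC, 16.3 ± 3.87 FPKM in MC and 5.81 ± 1.36 FPKM in LC. It rose in HC against LC (1.01 ± 0.18 log2, limma adjusted p = 0.00246) and in MC against LC (1.34 ± 0.18 log2, adjusted p = 2.57e-04). SDHAF4, also an assembly factor, fell in HC against LC (-0.47 ± 0.15 log2, adjusted p = 0.0367) and in MC against LC (-0.53 ± 0.15 log2, adjusted p = 0.0165). Without LC1 the fall of SDHAF4 in HC against LC no longer passed (-0.46 log2, adjusted p = 0.0654), while it passed in MC against LC (adjusted p = 0.0310) and SDHAF1 passed in both (adjusted p = 0.00912 and 0.00130). The subunit genes SDHA, SDHB, SDHC and SDHD passed in none of these contrasts with all libraries. Without LC1, SDHA was lower in MC than in LC (-0.40 log2, limma adjusted p = 0.0326). It was then also higher in HC than in MC (0.37 log2, adjusted p = 0.0278). SDHB, SDHC and SDHD did not pass without LC1. With all libraries, 0 of the 8 passed the limma test in HC against MC, and 0 had an unadjusted p under 0.05. Without LC1, 1 was higher and 0 lower.

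Of 18 regulators tested with limma, 2 fell (11.1%, against 17.4% of all genes) and 0 rose in HC against LC (4 higher at an unadjusted p under 0.05). In MC against LC 3 rose (16.7%, against 16.2%) and 5 fell (27.8%, against 17.1%). In HC against MC 2 rose (11.1%, against 8.0%) and 2 fell (11.1%, against 17.0%). TFB2M, a mitochondrial transcription factor, averaged 30.4 ± 1.02 FPKM in MC and 14.6 ± 2.56 FPKM in LC (1.02 ± 0.13 log2, limma adjusted p = 1.56e-04), and 16.3 ± 0.69 FPKM in HC. PPRC1, a coactivator related to PGC-1, averaged 6.01 ± 1.15 FPKM in MC and 2.33 ± 0.38 FPKM in LC (1.07 ± 0.16 log2, adjusted p = 3.87e-04). SIRT3, a mitochondrial deacetylase, fell in MC against LC (-0.61 ± 0.12 log2, adjusted p = 0.00315). PPARGC1B, another PGC-1 coactivator, was higher in HC, at 9.52 ± 1.94 FPKM, than in MC, at 5.43 ± 0.73 FPKM (0.70 ± 0.15 log2, adjusted p = 0.00606). Without LC1 the adjusted p in MC against LC was 2.53e-04 for TFB2M, 6.18e-04 for PPRC1 and 0.00687 for SIRT3, and that of PPARGC1B in HC against MC was 0.00585. Without LC1, 1 regulator rose (5.56%, against 6.74% of all genes) and 2 fell (11.1%, against 17.2%) in HC against LC. In MC against LC 3 then rose (16.7%, against 15.9%) and 4 fell (22.2%, against 18.8%). In HC against MC 4 then rose (22.2%, against 11.3% of all genes) and 2 fell (11.1%, against 23.5%). TFAM, which packages mitochondrial DNA, and NRF1, an activator of many respiratory genes, passed in no contrast with or without LC1. ESRRA stood higher in HC than in MC by 0.40 log2 (limma adjusted p = 0.0963, and 0.0228 without LC1).

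Mitochondrial ribosomal proteins, which translate the mitochondrially encoded subunits, had 13 rises (17.8%, near the 16.2% of all genes) and 1 fall (1.37%, against 17.1%) among 73 genes in MC against LC, with a median of 0.25 log2. Without LC1 there were 12 rises and 6 falls, and the median was 0.09 log2. MRPL15 rose by 0.88 ± 0.12 log2 (limma adjusted p = 2.40e-04, and 3.76e-04 without LC1) and MRPL13 by 0.93 ± 0.15 log2 (adjusted p = 6.24e-04, and 4.96e-04 without LC1). In HC against MC 8 fell (11.0%, against 17.0% of all genes) and 0 rose in the limma test, also at an unadjusted p under 0.05, and without LC1 12 fell and 2 rose. In HC against LC 5 rose and 1 fell with a median of 0.14 log2, and without LC1 3 rose and 6 fell with a median of -0.05 log2. Cytosolic ribosomal proteins had medians of 0.31 log2 in HC against LC and -0.04 log2 in MC against LC, among 76 genes. In the limma test 1 of them fell and 0 rose in HC against LC (10 at an unadjusted p under 0.05), 1 rose and 1 fell in MC against LC, and 3 rose and 1 fell in HC against MC, where the median was 0.33 log2. Without LC1 the medians against LC were 0.05 and -0.27 log2. In that fit 29 fell (38.2%, against 18.8% of all genes) and 0 rose in MC against LC (1 at an unadjusted p under 0.05 in the limma test), and 42 rose (55.3%, against 11.3% of all genes) and 1 fell in HC against MC. The count in HC against LC was again 1 fall and 0 rises (7 at an unadjusted limma p under 0.05).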

How the data were processed

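Per the submitters' processing notes, Bowtie 1.2.0 and Cufflinks 2.2.1 were used. The deposited files hold 1 FPKM value per gene and library. The unit follows from the tool and the range of values, since no label names it. Genome build, strand and read depth were not given in the sources used here. Libraries were made from total RNA with a TruSeq kit, per the labels' protocols. The HC files held 11468 to 12038 empty lines, and the MC and LC files 18 to 21 lines whose gene names had become numbers, which were left out. A gene was tested if it reached 1 FPKM in 3 or more libraries (11879 genes) and was listed in all 9, which left out 211.

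From the deposited FPKM, log2(FPKM + 1) was computed and compared with limma 3.58.1 (R 4.3.3, statmod 1.5.0; trend and robust moderation, two-sided) in 1 fit of 9 libraries with a mean per diet and 6 residual degrees of freedom. Adjustment was by Benjamini-Hochberg per contrast. The fit was tested on simulated data. A single member enters the counts and sums and is not reported singly here. Medians over members and complexes carry no test. Replicate numbers were not taken as pairs, since the labels tie no number to a shared animal or day. The deviations of same-numbered libraries correlated above 0.1 in 6 of 9 pairs, and a fit with the number as a block is given below. The files name sequences by accession, and each was given the chromosome that holds most of its named genes in RefSeq's annotation of the ARS1.2 assembly, in which all 54 members were found. Positions are from the files and none from ARS1.2. Starts in the files count from 0 and are given from 1.

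Members, lists and alternatives were chosen with earlier results of these data known. Values per library are given for every member past the test, the 2 most abundant and the 2 with the lowest F p of each complex, and the NDUFA4 pair, and up to 4 genes of each other list by adjusted p. ATP5G1, NDUFV1 and NDUFB10, and the LC1 values of NDUFS3, NDUFA6, ATP5H, NDUFS1, ATP5A1 and ATP5B, were added after their values were seen. So were KRT5, DES, MYH11, ACTA2, SHMT2, HIF1A, TFAM, NRF1, ESRRA and the SDH genes. Alternatives changed the pseudocount (0.1 or 5), the filter, the scaling, the moderation, the library weights, the replicate block and the libraries used.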

Additional observations from a re-analysis of the deposited data

How the results depend on the processing

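The named rises and falls kept their direction under every alternative in which they were tested, and settings that ended a member's call stand beside it in the report. Genes of the other lists were tried only without LC1. Over single genes, 676 of the alternative values stayed on their side of the threshold, 113 passed it, 29 no longer passed it and 20 changed sign. Depth is unknown and limits no value here by count, and the cause of the changes below was not tested.

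Against 2939 genes passing in HC against LC, 3894 in MC against LC and 2917 in HC against MC, array quality weights gave 5889, 5587 and 6590 genes (50.5%, 47.9% and 56.5%). The stricter filter of 5 FPKM gave 1908 of 8119 genes tested in HC against LC (23.5%, against 25.2% of 11668), and leaving out LC1 with equal library sums gave 5185 in HC against MC. Leaving out 1 library gave 1769 to 2811 genes in HC against LC, 2838 to 4043 in MC against LC and 1619 to 4066 in HC against MC. The split of higher and lower genes moved with the scaling. In HC against LC it was 909 and 2030 as deposited, 653 and 2292 with equal library sums and 1494 and 1329 after median-of-ratios scaling. In HC against MC it was 933 and 1984, 538 and 2768, and 1513 and 1319 in the same order. The median of all genes in HC against LC was -0.10, -0.22 and 0.005 log2.

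In this paragraph a percentage in brackets is the share of all genes tested with the same call in the same fit. Members higher and lower in HC against LC, 3 and 1, ranged over 0 to 3 and 1 to 4 when 1 library was left out. The lower count was 0 with the 5 FPKM filter (14.6%), 2 with equal library sums (19.6%) and after quantile normalization (9.92%), 7 with array weights (33.7%) and 4 without LC1 with equal library sums (15.5%). In MC against LC, with 2 and 2, leaving out 1 library gave 1 to 3 higher and 0 to 17 lower. The higher count was 5 with equal library sums (16.1%), also without LC1 (25.4%), and 4 after median-of-ratios scaling (17.0%) or quantile normalization (18.6%). The lower count was 1 with the 5 FPKM filter (16.8%), 7 after quantile normalization (18%), 15 with array weights (26.0%) and 15 without LC1 after median-of-ratios scaling (17.8%). In HC against MC, with 1 and 2, leaving out 1 library gave 0 to 11 higher and 0 to 2 lower. The higher count was 2 with equal library sums (4.61%) or without trend and robust moderation (7.79%), 7 after median-of-ratios scaling (13.0%), 5 after quantile normalization (13.3%), 17 with array weights (21.7%), 24 without LC1 after median-of-ratios scaling (17.7%) and 4 without LC1 with equal library sums (7.02%). The lower count was 1 after median-of-ratios scaling (11.3%) and 6 without LC1 with equal library sums (37.4%).

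The summed level in HC over MC was 0.20 log2 for complex I and 0.21 for complex V as deposited, 0.029 and 0.038 as a share of the library, and 0.32 and 0.33 after median-of-ratios scaling. With the replicate number as a block, 3751 genes passed in HC against LC (32.1%), 4613 in MC against LC (39.5%) and 3871 in HC against MC (33.2%). Members higher and lower were then 4 and 1 in HC against LC (10.1% and 22.1% of all genes). They were 4 and 3 in MC against LC (19.2% and 20.3%), and 5 and 2 in HC against MC (11.1% and 22.1%). Deviations of same-numbered libraries had correlations of -0.08 to 0.50, above 0 in 8 of 9 pairs, and those of the other pairs -0.49 to 0.31, above 0 in 6 of 18. Deviations were taken from the mean of a diet, so a positive value in 1 pair forces lower values in others, and these 2 counts are not separate. A library correlated best with its own number in 11 of 18 cases, each a choice among 3 libraries of another diet. That is a hint from the data and not from the design, since no label says what the numbers share.

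Changes of sign all concerned MC against LC in genes that did not pass with all libraries. Leaving out 1 library gave -0.29 to 0.037 log2 for ATP5F1, -0.31 to 0.11 for ATP5O, -0.49 to 0.033 for NDUFA2, -0.29 to 0.034 for NDUFA7, -0.34 to 0.16 for NDUFB6, -0.48 to 0.033 for NDUFB9, -0.35 to 0.15 for NDUFC1 and -0.47 to 0.079 for NDUFS5. With equal library sums NDUFB6 stood at 0.017 and NDUFC1 at 0.012 log2.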
